A study of Caenorhabditis elegans with 30 samples.

Results

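Histone H3 trimethylated at lysine 9 (H3K9me3) marked 339 windows of 1 kb that were chosen by 3 limits on the H3K9me3 ChIP-seq values themselves. Mean H3K9me3 over the feedings had to be at least 12 RPKM in WT, at most 0.55 times WT in set-32 mutants, and above 0.6 times WT in hrde-1 mutants. RPKM is the number of reads per kb of window, scaled to the total of aligned reads. The 339 windows came from 99383 windows outside those marked by the authors as misannotated, as GRH or as GRTS, in a table of 100270 windows. GRH windows lose H3K9me3 and GRTS windows gain transcription in the absence of the germline nuclear RNAi pathway. A further 15210 windows outside these classes met the WT limit only or together with 1 of the other 2, and they serve below as the other H3K9me3-rich windows.

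SET-32, MET-2 and SET-25 are histone methyltransferases (HMTs) that act on H3K9 in C. elegans. MET-2 makes the lower methylation states and SET-25 makes trimethylated H3K9. HRDE-1 is a germline Argonaute protein that carries small RNAs into the nucleus and directs H3K9me3 and transcriptional silencing at their targets, where SET-32 acts as well. H3K9me3 in worms lies mainly on the repeat-rich arms of the autosomes, and much of it is laid down without nuclear RNAi.

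H3K9me3 was measured in whole young adults of set-32(ok1457), hrde-1(tm1200), met-2(n4256);set-25(ok5021), the triple mutant, which carries these 3 alleles together, and WT (N2), all synchronized and grown at 19 °C. Each strain was grown on OP50, gfp RNAi and oma-1 RNAi bacteria, with 1 library for each strain and feeding (15 libraries). Elongating Pol II, recognised by phosphorylation at S2 of its C-terminal domain, was measured on the RNAi bacteria only (10 libraries). Libraries of 1 strain on different bacteria were treated as its samples (n = 3 for H3K9me3, n = 2 for Pol II), so that the SDs measure the spread between feedings, and the SEs and p-values of limma the variation left after effects of feeding common to all strains. In whole animals, fewer cells with a mark and less of it in each cell cannot be told apart, and all mutations are present in every tissue.

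Estimated from the RPKM step of a single read, H3K9me3 libraries had 2445500 to 7227200 aligned reads, and those of Pol II had 3817900 to 6781800. The WT library on OP50 had the largest contrast between H3K9me3-rich and H3K9me3-poor windows. Its median over the 5% of windows richest in H3K9me3 was 13.4 times its median over H3K9me3-poor windows. In WT on gfp RNAi the same ratio was 3.76, and on oma-1 RNAi it was 6.90. Both sets of windows were taken by their values in the WT library on OP50, which favours a high ratio in that library. The set-32 and triple mutant libraries carry other codes in their names than hrde-1, met-2 set-25 and WT do, and a difference that goes with the code cannot be told apart from these strains. The windows are named below by chromosome and by the kb at which they start on the WS190 (ce6) genome. They were not placed in genes, because the annotation of this build was not used here.

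The levels that chose the windows are given as a description. Over the 339 windows, the median of the mean H3K9me3 was 20.6 RPKM in set-32, 28.5 RPKM in hrde-1 and 40.2 RPKM in WT. In set-32 the library medians were 19.9 RPKM on OP50, 19.0 RPKM on gfp RNAi and 22.8 RPKM on oma-1 RNAi. In hrde-1 they were 29.6, 25.6 and 31.3 RPKM, and in WT they were 52.5, 28.1 and 38.9 RPKM, in the same order of feedings. The mutant medians differed little between feedings, whereas the WT median on OP50 was well above that on gfp RNAi.

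**Figure D1:**
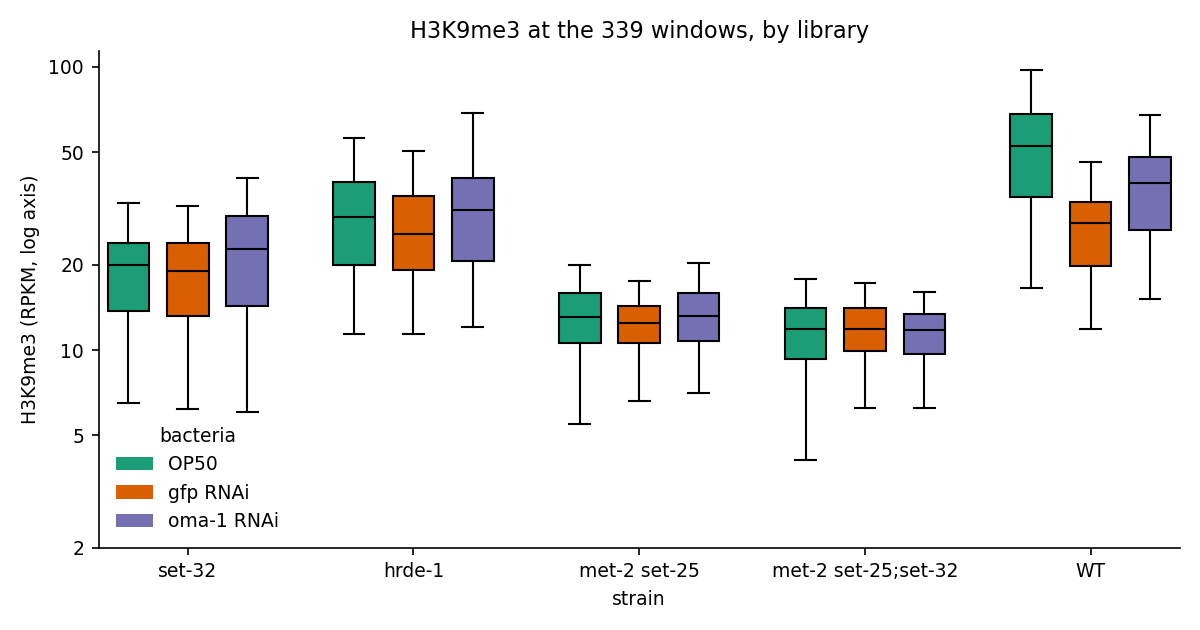
H3K9me3 (RPKM, log axis) at the 339 windows in each of the 15 libraries, by strain and bacteria. Boxes show the quartiles, the line in each box is the median, and whiskers run to the 5th and 95th percentiles of the windows. The set-32 medians lie at 19.0 to 22.8 RPKM, between those of met-2 set-25 (12.5 to 13.2 RPKM) and hrde-1 (25.6 to 31.3 RPKM), and the WT medians range most widely (28.1 to 52.5 RPKM).

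The label of SET-32-sensitive and HRDE-1-independent H3K9me3 was only partly borne out by single feedings. On OP50, set-32 had a median ratio to WT of 0.367 and hrde-1 one of 0.578, and only 144 of the 339 windows (42.5%) were above 0.6 times WT in hrde-1. On gfp RNAi the median ratios were 0.672 and 0.957, and only 38 windows (11.2%) were at most 0.55 times WT in set-32. On oma-1 RNAi they were 0.582 and 0.800, and 122 windows (36.0%) met the set-32 limit. All limits on the ratios were met in every feeding by 13 windows (3.83%). H3K9me3 in hrde-1 was thus below WT at most of these windows, and they are called here by their rule and not as independent of HRDE-1.

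The limits on the means fix that mean H3K9me3 was lower in set-32 than in hrde-1 at all 339 windows, so counts of this order describe the choice and are no result. In single feedings set-32 was below hrde-1 at 333 windows on OP50, 334 on gfp RNAi and 328 on oma-1 RNAi, and in all of them at 317 (93.5%). Among the other H3K9me3-rich windows this was so at 68.6%, 57.1% and 50.2%, and in all feedings at 31.1%. The highest set-32 library was below the lowest hrde-1 library at 260 members (76.7%), against 18.2% of the other H3K9me3-rich windows.

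**Figure D2:**
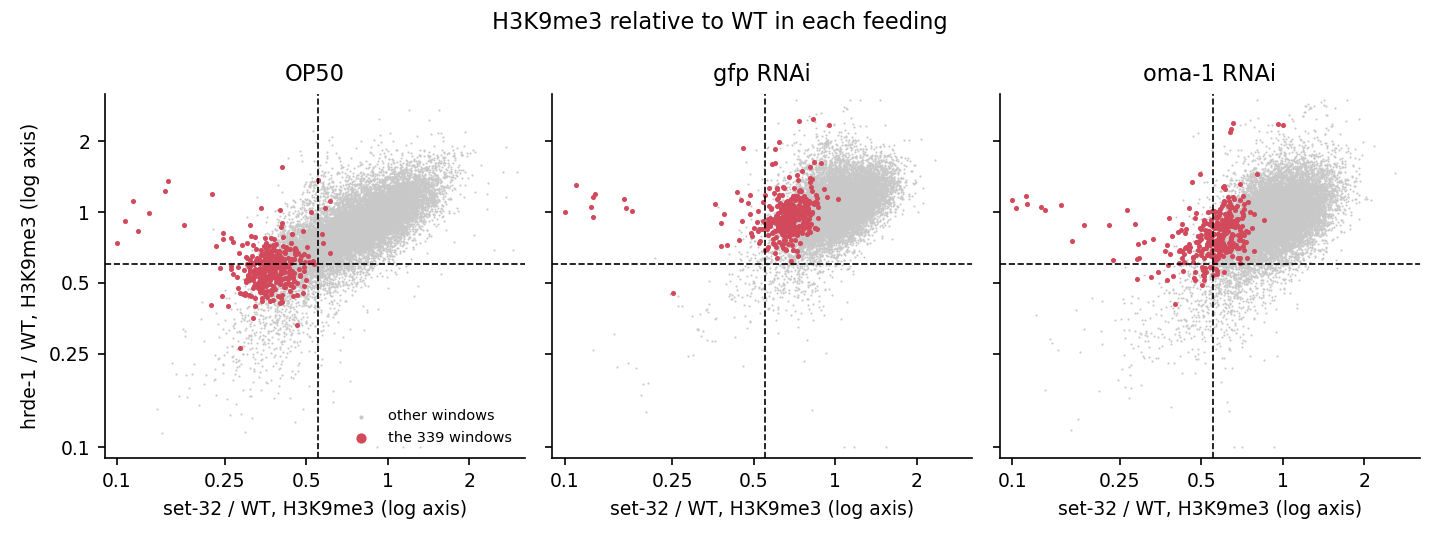
H3K9me3 in set-32 relative to WT (horizontal, log axis) against hrde-1 relative to WT (vertical, log axis) in each feeding, with the 339 windows in red and the 15210 other H3K9me3-rich windows in grey. Dashed lines mark 0.55 and 0.6, and values beyond 0.1 or 3 are drawn at these limits. The red cloud lies left of the vertical line on OP50 (333 windows), and mostly right of it on gfp RNAi (38 windows left of it).

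The rule was applied again to 2 feedings at a time, so that the remaining feeding played no part in taking the windows. Without the OP50 libraries it took 92 windows, of which 62 were among the 339. In the OP50 libraries these 92 had a median ratio of 0.417 in set-32 and 0.590 in hrde-1, against 0.737 and 0.842 in all windows that met the WT limit. Without gfp RNAi it took 873 windows, with medians of 0.765 and 0.999 on gfp RNAi, against 0.997 and 1.05. Without oma-1 RNAi it took 916 windows, with medians of 0.693 and 0.876 on oma-1 RNAi, against 0.921 and 0.939. In each left-out feeding the set-32 ratio lay farther below that of all windows than the hrde-1 ratio did, with 1 library per strain and no test. All windows here met the WT limit by the mean of all feedings, the left-out one included, so the sets compared were not chosen alike. The 62 windows that did not rest on OP50 were on chromosomes V (23), II (15), I (9), X (8), III (4) and IV (3).

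Many members lay close to the limits. The set-32 ratio was above 0.5 at 221 of the 339 windows and below 0.3 at 10, with a median of 0.520. The members just inside the set-32 limit, V 17520, X 16826 and V 17705, had ratios that rounded to 0.55 or lay at 0.5499, and the windows just outside, I 9380, I 14939 and II 1141, had a ratio that rounded to 0.55 and ratios of 0.5501 and 0.5501. The hrde-1 ratio had a median of 0.732 and was below 0.65 at 69 windows. Just inside its limit, II 12156, V 17544 and II 1990 had 0.6001, 0.6003 and 0.6010, and just outside it V 5180, X 155 and II 1946 had 0.5990, 0.5987 and 0.5984. The WT level just inside its limit was 12.18 RPKM at II 1152, 12.21 RPKM at I 1550 and 12.31 RPKM at V 18063, and just outside it 11.88 RPKM at III 1085, 11.85 RPKM at I 11082 and 11.81 RPKM at V 172.

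The windows were unevenly placed on the chromosomes. Chromosome V held 191 of the 339 (56.3%), against 4479 of the 15210 other H3K9me3-rich windows (29.4%). On chromosome V, 166 windows lay beyond 16000 kb, in the right arm, which was 49.0% of all members against 16.8% of the others. Chromosome II followed with 58 windows, 51 of them in the left of 3 equal parts, then X with 33, I with 31, IV with 18 and III with 8. The outer parts of the chromosomes held 91.7% of the members and 92.8% of the other H3K9me3-rich windows, so the excess of members was on the right arm of V and not on arms as such. These shares are a description, since neighbouring windows are not independent. They also rest in part on the OP50 libraries, as 23 of the 62 members that met the rule without OP50 were on V. The other H3K9me3-rich windows had a lower median WT level, 17.0 RPKM against 40.2 RPKM, and were not matched for it.

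Members were often in runs. When members with at most 1 other window between them were joined, they formed 208 regions. Of these, 147 had 1 member, 48 had 2 or 3, and 13 had 4 or more. The 419 windows next to a member that were not members themselves had a median of 32.2 RPKM in WT, with ratios of 0.603 in set-32 and 0.771 in hrde-1. The members were in this sense the parts of broader domains that passed the limits. Median H3K9me3 at 20 kb on either side was 14.2 and 15.2 RPKM in set-32 and 20.7 and 19.8 RPKM in WT.

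**Figure D3:**
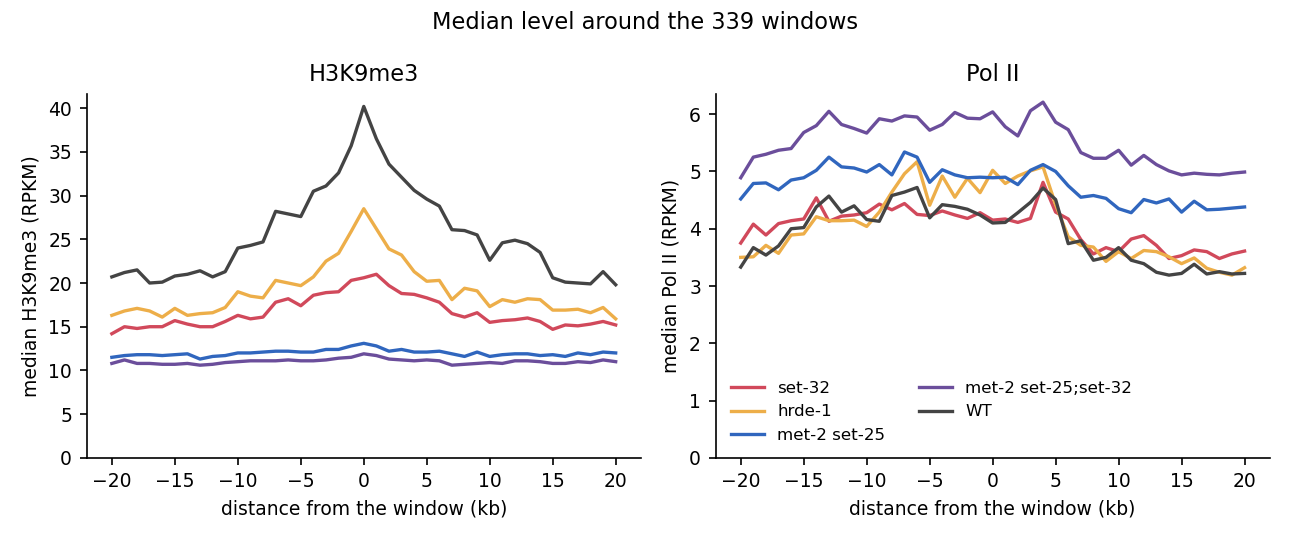
Median H3K9me3 (left) and Pol II (right), in RPKM, at the 339 windows and at windows up to 20 kb away, for each strain as the mean of its feedings. At the centre, H3K9me3 is 20.6 RPKM in set-32, 28.5 in hrde-1, 13.1 in met-2 set-25, 11.9 in the triple mutant and 40.2 in WT. The triple mutant and met-2 set-25 have nearly flat curves, and the central peak of WT is fixed by the choice of the windows.

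The WT levels of the members were high among H3K9me3-rich windows. The WT mean was at least 40 RPKM at 170 of the 339 windows (50.1%), against 4.92% of the other H3K9me3-rich windows. WT sets a limit of its own and is the divisor in the set-32 limit, so the choice favoured high WT levels. These shares describe the choice and are no result. The highest levels in WT were at V 17141, V 17140, V 17142, V 17143 and V 17629. At V 17141, H3K9me3 was 39.6, 32.8 and 54.5 RPKM in set-32, 72.5, 66.7 and 77.8 RPKM in hrde-1, 15.5, 17.7 and 21.9 RPKM in met-2 set-25, 18.2, 16.9 and 15 RPKM in the triple mutant, and 128, 55.3 and 86.3 RPKM in WT, on OP50, gfp RNAi and oma-1 RNAi. At this window the set-32 libraries were below all WT libraries and above all libraries of the strains without MET-2 and SET-25.

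The largest region, V 17134 to V 17147, had 12 members and includes the windows with the highest WT level. Its mean H3K9me3 was 33.8, 33.2 and 43.3 RPKM in set-32, 59.4, 51.7 and 67.8 RPKM in hrde-1, and 101, 48.5 and 71.0 RPKM in WT (OP50, gfp RNAi, oma-1 RNAi). The set-32 libraries were below all hrde-1 and WT libraries, and hrde-1 and WT overlapped. Both strains without MET-2 and SET-25 were lower still, with 17.1 ± 1.41 RPKM for met-2 set-25 and 14.4 ± 0.926 RPKM for the triple mutant (SD, n = 3). Pol II was low in this region in every strain, at 4.51 and 4.01 RPKM in set-32 and 4.06 and 4.15 RPKM in WT (gfp RNAi, oma-1 RNAi).

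In other regions of the right arm of V, mean H3K9me3 was also lower in set-32 than in hrde-1 and WT. The rule fixes this order at every member, so it is no result. In the region of 8 members from V 16931 to V 16940, H3K9me3 was 23.0 ± 2.21 RPKM in set-32, 33.3 ± 2.88 in hrde-1, 12.7 ± 0.837 in met-2 set-25, 12.6 ± 0.411 in the triple mutant and 43.7 ± 14.7 in WT (SD, n = 3 each). In the 5 members from V 17528 to V 17534, it was 22.4 ± 2.31 RPKM in set-32, 34.0 ± 5.09 in hrde-1 and 44.8 ± 14.7 in WT. In the 4 members from V 18119 to V 18123, it was 24.7 ± 1.55 RPKM in set-32, 37.6 ± 2.96 in hrde-1 and 50.6 ± 18.4 in WT. The SD of WT was the largest in each of these regions, where its OP50 library was the highest and its gfp RNAi library the lowest.

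On the left arm of II, the region of 11 members from II 1937 to II 1949 had 25 ± 3.27 RPKM in set-32, 38.4 ± 2.61 in hrde-1, 13.8 ± 0.854 in met-2 set-25, 12.2 ± 0.696 in the triple mutant and 50.8 ± 17.9 in WT. Its Pol II was 14.3 and 9.27 RPKM in set-32, 8.03 and 5.92 RPKM in met-2 set-25, and 10.5 and 12.4 RPKM in WT (gfp RNAi, oma-1 RNAi). The 4 members from II 2019 to II 2022 had 28.2 ± 4.64 RPKM of H3K9me3 in set-32 and 54.1 ± 19.4 RPKM in WT.

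A few regions combined H3K9me3 with high Pol II. In the 7 members from II 1146 to II 1152, H3K9me3 was 7.34, 7.32 and 6.61 RPKM in set-32, 14.4, 18.1 and 16.9 RPKM in hrde-1, and 22.1, 14.9 and 22.3 RPKM in WT (OP50, gfp RNAi, oma-1 RNAi). The set-32 libraries were below all libraries of hrde-1 and WT, and they overlapped those of met-2 set-25, at 5.14, 6.97 and 7.59 RPKM. Pol II in this region was 65.4 and 72.2 RPKM in set-32 and 58.1 and 57.3 RPKM in WT (gfp RNAi, oma-1 RNAi). In the 9 members from X 170 to X 179, near the left end of the X chromosome, H3K9me3 was 16.4 ± 1.05 RPKM in set-32, 23.8 ± 2.16 in hrde-1 and 33.7 ± 10.9 in WT, and Pol II was 24.5 and 22.4 RPKM in set-32 and 16.6 and 20.8 RPKM in WT. None of the members in these 2 regions was called for Pol II in set-32.

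**Figure D4:**
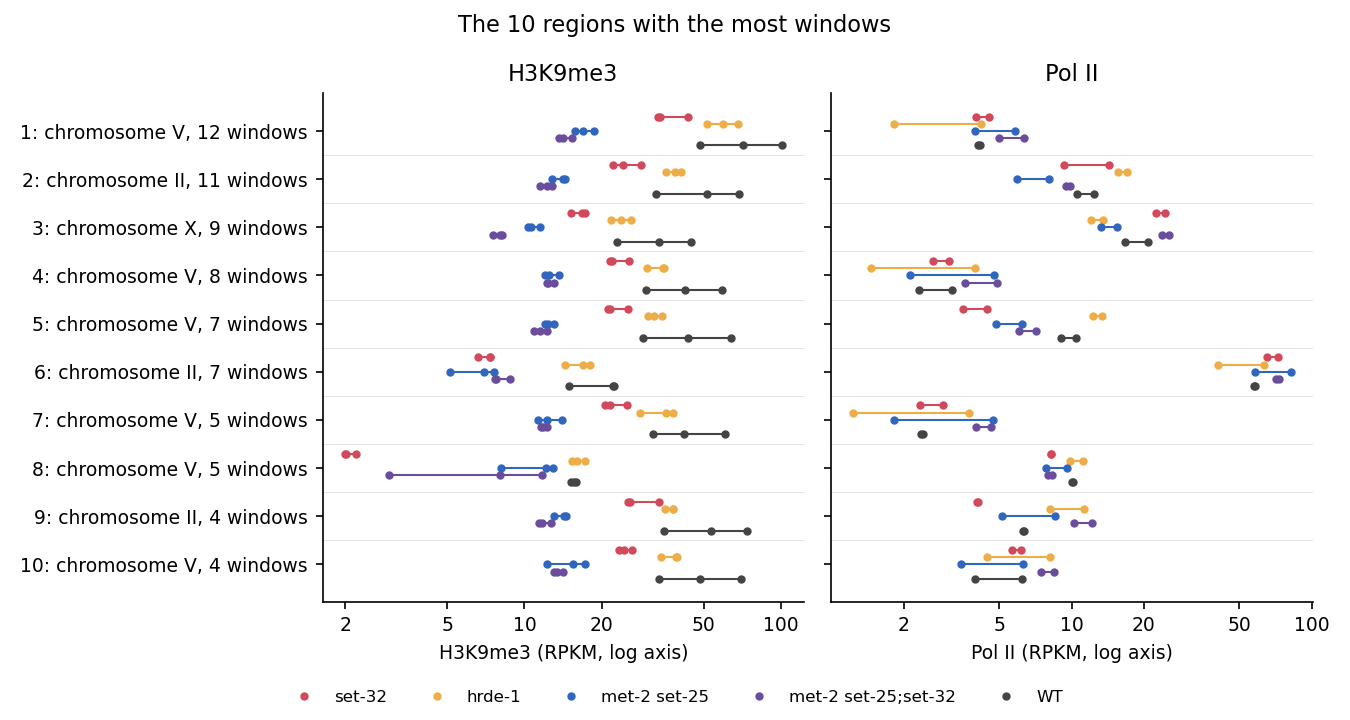
H3K9me3 (left) and Pol II (right), in RPKM on log axes, averaged over the members of each of the 10 regions with the most members. The regions are numbered by size, each point is 1 library, and lines join the feedings of a strain. In region 8, set-32 lies at 1.99 to 2.20 RPKM of H3K9me3 against 15.2 to 15.9 RPKM in WT, and region 6 has the highest Pol II.

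Over all members, 99 of 339 (29.2%) had a mean WT Pol II of at least 10 RPKM, close to the 28.5% of all tested windows and above the 13.9% of the other H3K9me3-rich windows. These 99 had medians of 13.7 RPKM of H3K9me3 in set-32 and 27.3 RPKM in WT, and the remaining 240 had 22.0 and 42.9 RPKM. Their median ratios, which the rule limits, were 0.498 and 0.525 for set-32 and 0.732 and 0.729 for hrde-1. Members with high Pol II had lower H3K9me3 at much the same ratio to WT.

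The loss was most complete in 9 members from V 18048 to V 18063, which were singled out after their values were seen. In set-32 their mean H3K9me3 was 2.28 RPKM on OP50 (95% counting interval 1.87 to 2.75), 2.11 RPKM on gfp RNAi (1.69 to 2.61) and 1.94 RPKM on oma-1 RNAi (1.48 to 2.51), below the medians of the H3K9me3-poor windows. In WT it was 16.4, 15.5 and 14.9 RPKM, and in hrde-1 it was 16.4, 17.0 and 15.3 RPKM, in the same order, so that these 2 strains overlapped. The intervals cover counting error only. Unlike most members, these windows had nearly the same WT level on OP50 as on the RNAi bacteria.

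At these 9 windows the feedings of the triple mutant were unlike each other. H3K9me3 in the triple mutant was 2.66 RPKM on OP50 (95% counting interval 2.05 to 3.40), 11.8 RPKM on gfp RNAi (11 to 12.7) and 8.09 RPKM on oma-1 RNAi (7.41 to 8.83). In met-2 set-25 it was 8.33, 12.2 and 13.2 RPKM. The low value went with the library code. The 3 set-32 libraries and the OP50 library of the triple mutant share 1 code, and at all 9 windows these 4 libraries were below each of the 11 other H3K9me3 libraries. This was so at 31 of all 99742 tested windows, of which 12 lay between V 18048 and V 18063. The part of the code in this was not tested. Pol II, in libraries of another code, was 8.44 and 8.46 RPKM in set-32 and 10.4 and 10.4 RPKM in WT.

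H3K9me3 was lower in the strains without MET-2 and SET-25 than in set-32 at most members. The median level of the members was 13.1 RPKM in met-2 set-25, 11.9 RPKM in the triple mutant and 40.2 RPKM in WT. The met-2 set-25 mean was below the set-32 mean at 302 of 339 windows (89.1%), against 83.1% of the other H3K9me3-rich windows. The highest met-2 set-25 library was below the lowest set-32 library at 242 (71.4%), against 47.1% of the others. The choice of the members used set-32 and favoured high WT levels, and the others were not matched for either strain. The larger shares among the members therefore describe the choice and are no result. Among the named regions, these 2 strains overlapped from II 1146 to II 1152, and set-32 was the lower one from V 18053 to V 18057.

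In met-2 set-25, the members were not far above the level of the genome at large. The ratio of their median to that of all tested windows in the same library was 1.33, 1.31 and 1.40 (OP50, gfp RNAi, oma-1 RNAi), and it was 1.23, 1.22 and 1.22 in the triple mutant. In set-32 it was 2.24, 2.10 and 2.71, and in WT 7.45, 3.31 and 4.97. The other H3K9me3-rich windows lay at 1.38, 1.31 and 1.43 in met-2 set-25, so the members did not stand above them in that strain. In WT, where the choice favoured high levels, they did, and the others lay at 2.75, 1.77 and 2.21.

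Windows were compared with limma on log2(RPKM + 1), with each H3K9me3 library scaled to its median over H3K9me3-poor windows, and called at an adjusted p under 0.05 and at least a 2-fold change. In met-2 set-25 against WT, 314 of the 339 members were called lower, where 6.08% of all tested windows were. In the triple mutant against WT, 337 were called lower, where 9.20% of all tested windows were. High WT levels chose the members, and nothing is read from these counts.

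Whether loss of SET-32 lowered H3K9me3 further where MET-2 and SET-25 were already missing was asked with libraries that did not choose the members. The contrast is still not independent of the choice. The OP50 library of the triple mutant shares its code with the set-32 libraries, and met-2 set-25 shares that of WT and hrde-1. A difference that goes with the code could enter both the choice and the calls, and this was not tested. In the triple mutant, 4 of 339 members (1.18%) were called lower than in met-2 set-25, where 0.0742% of all tested windows and 0.0986% of the other H3K9me3-rich windows were. None was called higher, where 0.00201% of all tested windows were. None was higher at an unadjusted p under 0.05 in limma either, where 0.617% of all tested windows were. At an unadjusted p under 0.05, 46 members (13.6%) were lower, against 9.08% of all tested windows. The median log2 difference was -0.43 over the members, -0.36 over the other H3K9me3-rich windows and -0.26 over all tested windows. With depth normalization only, the medians were -0.15 over the members and 0.02 over all windows. The difference was then below 0 in all 3 feedings at 107 members (31.6%). This was so at 23.1% of the other H3K9me3-rich windows and at 12.8% of all tested windows.

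The 4 members called lower in the triple mutant were X 27, X 29, V 18048 and V 18056. At X 27, H3K9me3 was 5.72, 4.12 and 5.29 RPKM in the triple mutant and 13.2, 8.53 and 12.2 RPKM in met-2 set-25 (OP50, gfp RNAi, oma-1 RNAi), a log2 difference of -1.27 ± 0.26 (SE, limma adjusted p = 0.00313). The strains did not overlap at this window. At X 29 it was 5.33, 6.90 and 3.41 RPKM in the triple mutant and 10.5, 8.55 and 12.9 RPKM in met-2 set-25 (-1.18 ± 0.26, adjusted p = 0.01). At V 18048, H3K9me3 was 2.79, 15.3 and 11.6 RPKM in the triple mutant and 13.2, 15.6 and 18.6 RPKM in met-2 set-25. At V 18056 it was 2.97, 13.6 and 10.7 RPKM in the triple mutant and 12.8, 14.8 and 17.4 RPKM in met-2 set-25. The OP50 library of the triple mutant was far below its other libraries at both, and the gfp RNAi libraries of the strains were close. Their log2 differences were -1.13 and -1.12 (adjusted p = 0.0298 and 0.0238). A further window, V 18049, had a log2 difference of -1.06 and missed the limit (adjusted p = 0.0549).

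These calls depended on single libraries. Without the triple mutant on OP50 or on oma-1 RNAi, or without met-2 set-25 on OP50 or on oma-1 RNAi, no member was called lower, and without the triple mutant on gfp RNAi 10 were. With depth normalization only, 1 was called. The 5 members with the highest differences, II 1147, II 1146, V 10858, X 17604 and II 1150, had log2 differences of 0.17 to 0.30 and adjusted p of 0.568 to 0.728, which is no call. At most members, therefore, a further difference between the triple mutant and met-2 set-25 was not detectable.

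Pol II was not used in choosing the members. In at least 1 mutant, 46 of 339 members (13.6%) were called for Pol II against WT, where 4.52% of all tested windows and 6.27% of the other H3K9me3-rich windows were, and the mutant contrasts share the WT libraries. Of the 46, 34 were only higher and 12 only lower, where 2.79% and 1.72% of all tested windows were. The remaining 293 members were called in no mutant. In set-32, where H3K9me3 was at most 0.55 times WT at all of them, the median log2 difference of Pol II was 0.11 over the members, 0.07 over the other H3K9me3-rich windows and 0.02 over all tested windows.

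**Figure D5:**
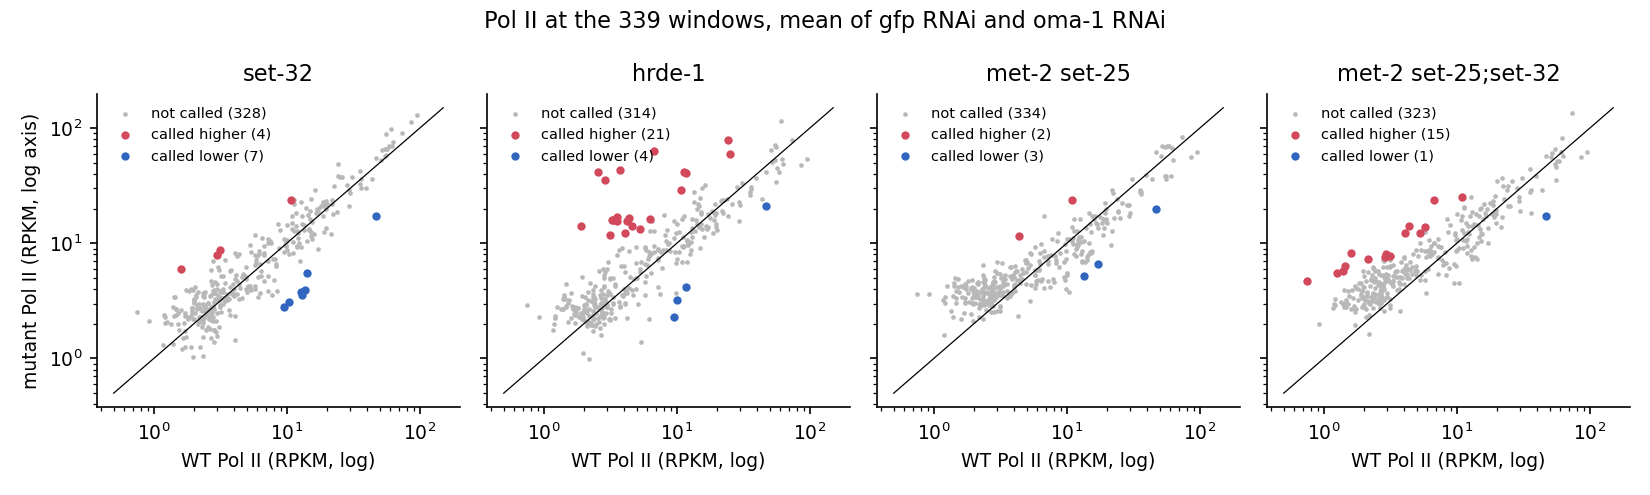
Pol II (RPKM, log axes) at the 339 windows in each mutant (vertical) against WT (horizontal), as means of gfp RNAi and oma-1 RNAi, with the line of equal levels. Windows called higher are red and windows called lower are blue. The calls higher and lower are 4 and 7 in set-32, 21 and 4 in hrde-1, 2 and 3 in met-2 set-25, and 15 and 1 in the triple mutant.

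In set-32, Pol II was called lower at 7 members (2.06%), where 1.32% of all tested windows were, and higher at 4 (1.18%), where 0.704% were. Of the 7, 6 lay in 1 stretch from V 17639 to V 17647. At V 17642, Pol II was 2.31 and 4.79 RPKM in set-32 and 11.4 and 14.8 RPKM in WT (gfp RNAi, oma-1 RNAi), a log2 difference of -1.68 ± 0.28 (limma, adjusted p = 6.03e-04). At V 17647 it was 3.23 and 4.69 RPKM in set-32 and 12.6 and 15 RPKM in WT (-1.59 ± 0.27, adjusted p = 6.26e-04). The set-32 libraries did not overlap WT at either window. H3K9me3 at V 17642 was 22.7, 21.6 and 25 RPKM in set-32, against 68.7, 32.8 and 42.5 RPKM in WT (OP50, gfp RNAi, oma-1 RNAi). Lower mean H3K9me3 in set-32 was required by the rule at every member, whereas Pol II had no part in it. Without the oma-1 RNAi library of set-32, or without that of WT, 4 members were called lower.

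The region of 7 members from V 17635 to V 17643 overlaps that stretch in part and does not hold V 17646 and V 17647. Across these 7 members, the order of the strains for Pol II was not that for H3K9me3. Mean Pol II was 4.43 and 3.52 RPKM in set-32, 13.4 and 12.3 in hrde-1, 6.20 and 4.82 in met-2 set-25, 7.08 and 6.02 RPKM in the triple mutant and 9.0 and 10.4 in WT (gfp RNAi, oma-1 RNAi). The hrde-1 libraries were the highest and those of set-32 the lowest, and neither overlapped WT. Their H3K9me3 was 22.7 ± 2.34 RPKM in set-32, 32.2 ± 1.96 in hrde-1, 12.5 ± 0.459 in met-2 set-25, 11.6 ± 0.663 in the triple mutant and 45.5 ± 17.7 in WT (SD, n = 3).

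The 4 members called higher for Pol II in set-32 were V 17343, IV 16316, X 17117 and IV 2213. At V 17343, Pol II was 5.58 and 6.42 RPKM in set-32 and 2.04 and 1.15 RPKM in WT (1.45 ± 0.34 on the log2 scale, limma adjusted p = 0.0134). At IV 2213 it was 23.1 and 24.6 RPKM in set-32 and 11.8 and 9.65 RPKM in WT (1.09 ± 0.23, adjusted p = 0.00600), and at this window hrde-1 was also called higher, at 26.5 and 31.6 RPKM. With a pseudocount of 4, none of the 4 was called, and leaving out the gfp RNAi library of set-32, the oma-1 RNAi library of set-32 or the oma-1 RNAi library of WT left 1.

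In hrde-1, Pol II was called higher at 21 members (6.19%), where 0.464% of all tested windows and 1.29% of the other H3K9me3-rich windows were. It was called lower at 4 (1.18%), where 0.135% of all tested windows were. The median log2 difference was 0.08 over the members and 0.03 over the other H3K9me3-rich windows. With single libraries left out, 16 to 20 were called higher, and without the hrde-1 library on oma-1 RNAi 2 were called lower. At these windows H3K9me3 in hrde-1 had been kept above 0.6 times WT by the choice of the members.

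Of the 5 largest rises in hrde-1, 3 were on the left arm of II, and the others were at V 5186 and V 17574. At II 2151, Pol II was 46.7 and 35.9 RPKM in hrde-1 and 3.06 and 2.07 RPKM in WT (gfp RNAi, oma-1 RNAi), a log2 difference of 3.57 ± 0.31 (limma, adjusted p = 2.14e-08). II 2153 and II 2155 rose by 3.22 and 3.2 on that scale, with 48.5 and 38.7 RPKM and 30.5 and 39.7 RPKM in hrde-1. At V 5186, Pol II was 55.7 and 71.0 RPKM in hrde-1 and 7.03 and 6.45 RPKM in WT (3.05 ± 0.25, adjusted p = 8.73e-09). At V 17574 it was 16.3 and 11.8 RPKM in hrde-1 and 1.73 and 2.07 RPKM in WT (2.36 ± 0.35, adjusted p = 2.06e-04). The groups did not overlap at any of these windows. In set-32, Pol II at II 2151 was 2.23 and 1.51 RPKM and at V 5186 it was 7.59 and 8.79 RPKM, and neither was called.

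The windows with the largest rise of Pol II differed in their level of H3K9me3. At V 5186 it was 42.5, 43.9 and 48.7 RPKM in hrde-1, 34.0, 32.3 and 44.5 RPKM in set-32 and 95.8, 44.9 and 67.6 RPKM in WT (OP50, gfp RNAi, oma-1 RNAi). At II 2153 it was 6.60, 11.7 and 12.5 RPKM in hrde-1 and 20, 13.2 and 16.4 RPKM in WT. The ratio of hrde-1 to WT, which the rule kept above 0.6, was 0.649 at V 5186 and 0.619 at II 2153. These 2 windows thus differed in their level and little in this ratio. At the others of the 5 largest rises the ratio was 0.781 (II 2151), 0.621 (II 2155) and 0.695 (V 17574).

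These windows lay next to known targets of the pathway. Of the 21 members called higher in hrde-1, 17 (81.0%) were within 2 kb of a GRH or GRTS window, against 19 of the 318 other members (5.97%). Over all members the count was 36 of 339 (10.6%), against 369 of the 15210 other H3K9me3-rich windows (2.43%). The authors marked GRH and GRTS windows in an earlier study of hrde-1 mutants, so this closeness is not an independent trait of the members.

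Some members could not be told apart by their values. In 9 pairs, all on chromosome V, the members had alike values in all 25 libraries, within 0.3 on the log2(RPKM + 1) scale. In 5 of these pairs, such as V 8842 with V 8884 and V 8844 with V 8886, the windows were 42 kb apart. A read that aligned to N loci was counted as 1/N at each, and the sequences of these windows were not compared here. V 8842 and V 8884 rose in hrde-1 by 1.97 and 2.00 on the log2 scale. With each pair counted once there were 330 members, and 19 were called higher for Pol II in hrde-1.

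The 4 members called lower for Pol II in hrde-1 were X 27, X 30, X 206 and IV 2995. At X 27, Pol II was 2.93 and 1.69 RPKM in hrde-1 and 8.69 and 10.5 RPKM in WT (-1.70 ± 0.29 on the log2 scale, limma adjusted p = 0.00125). At X 206 it was 5.37 and 3.05 RPKM in hrde-1 and 11.7 and 12 RPKM in WT (-1.34 ± 0.26, adjusted p = 0.00708). In both, met-2 set-25 had intermediate values, at 5.53 and 4.06 RPKM for X 27, and it was not called. H3K9me3 at X 27 was 15.2, 11 and 13.3 RPKM in hrde-1 and 17.3, 11.8 and 13.4 RPKM in WT (OP50, gfp RNAi, oma-1 RNAi), so that the fall of Pol II in hrde-1 came at nearly equal H3K9me3.

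IV 2995 was called lower for Pol II in all 4 mutants, which share the WT libraries. Pol II was 20 and 14.6 RPKM in set-32, 16.4 and 25.5 in hrde-1, 21.7 and 17.8 in met-2 set-25, 15.7 and 18.9 RPKM in the triple mutant and 42.3 and 52.2 in WT (gfp RNAi, oma-1 RNAi). The mutants overlapped each other, and WT lay apart from all of them. H3K9me3 at this window was 8.70, 7.53 and 10.0 RPKM in set-32 and 14.2, 30.1 and 34.0 RPKM in WT (OP50, gfp RNAi, oma-1 RNAi), so that WT was lowest on OP50 here.

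In met-2 set-25, Pol II was called lower at 3 members (0.885%), where 0.136% of all tested windows were, and higher at 2 (0.590%), where 0.299% were. The 3 were II 1933, IV 2995 and II 10936. At II 1933, Pol II was 4.87 and 8.41 RPKM in met-2 set-25 and 14.1 and 20.1 RPKM in WT (-1.26 ± 0.28 on the log2 scale, limma adjusted p = 0.0344). The 2 were IV 16312 and I 13852, and at I 13852 Pol II was 25.4 and 22.0 RPKM in met-2 set-25 and 11.2 and 10.6 RPKM in WT (1.05 ± 0.22, adjusted p = 0.0240). When 1 met-2 set-25 library was left out, whichever it was, no member was called lower, and when any 1 library of met-2 set-25 or WT was left out, no member was called higher. At an unadjusted p under 0.05 in limma with all libraries, 37 members (10.9%) were lower, against 3.26% of all tested windows, and 32 (9.44%) were higher, against 9.09%. Scaled to the median of all windows, 7 members were called lower and 0 higher.

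In the triple mutant, Pol II was called higher at 15 members (4.42%), where 1.85% of all tested windows and 2.97% of the other H3K9me3-rich windows were, and lower at 1 (0.295%), where 0.475% were. The median log2 difference was 0.38 over the members, 0.44 over the other H3K9me3-rich windows and 0.27 over all tested windows. This direction rested on the scaling. Scaled to the median of all windows, the members had a median of -0.01, and 7 were called higher and 12 lower.

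The members with the largest rises in the triple mutant were all on V, where V 18402 and V 19281 followed the 3 described here. At V 17343, Pol II was 10.7 and 5.90 RPKM in the triple mutant and 2.04 and 1.15 RPKM in WT (1.81 ± 0.34 on the log2 scale, limma adjusted p = 0.00321). At V 17146 it was 4.84 and 4.57 RPKM in the triple mutant and 0.610 and 0.880 RPKM in WT (1.71 ± 0.40, adjusted p = 0.0200). At V 20503 it was 24.6 and 23.3 RPKM in the triple mutant and 6.32 and 7.15 RPKM in WT (1.69 ± 0.29, adjusted p = 0.00184). The groups did not overlap at these windows. In the WT libraries of Pol II, 1 read was 0.204 RPKM on gfp RNAi and 0.231 RPKM on oma-1 RNAi. The WT values at V 17146 thus rested on few reads, as did that of 0.460 RPKM at V 18402 on oma-1 RNAi. In met-2 set-25, V 20503 had 13.4 and 21.5 RPKM and was not called. When 1 library of the triple mutant was left out, whichever it was, no member was called higher, and without the gfp RNAi library of WT 6 were.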

How the data were processed

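ChIP-seq reads were aligned by the authors to the WS190 genome with Bowtie 0.12.7, with perfect alignments kept and a read at N loci counted as 1/N. The authors deposited RPKM per window of 1 kb, normalized to depth and not corrected by input. The 339 windows and all lists were chosen with earlier results of these data known. Windows marked misannotated (506) or with a mean under 3 RPKM (22) were left out, which left 99742, and all 339 passed. H3K9me3 libraries were scaled to their median over H3K9me3-poor windows (5th to 25th percentile of WT on OP50, 22219 windows). limma 3.58.1 (R 4.3.3) was run on log2(RPKM + 1) with the trend term, all 5 strains and feeding as a block, with Benjamini-Hochberg adjustment over all windows. In simulated data with 200 changed windows of 99742, it recovered 67% of log2 changes of 1.2 in the triple mutant against met-2 set-25 (8 false calls). In Pol II of set-32 against WT it recovered 66% (13 false calls). The changed windows were all above the median level. In WT, 171 and 166 members were at or below the median Pol II of all tested windows (gfp RNAi, oma-1 RNAi), and recovery at such levels was not simulated. Named were the 10 regions with the most members, the 5 members with the highest WT level, the 5 largest changes each way from met-2 set-25 to the triple mutant, members called for Pol II (5 largest each way), and 3 windows on either side of each limit. Tables were made with Python 3.11.15, numpy 2.4.6 and pandas 2.3.3. The authors' marks of GRH, GRTS and misannotated windows were used. The other 7 columns, which class windows by H3K9me3 level or by the authors' own comparisons, and 5 input samples were not used here.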

Additional observations from a re-analysis of the deposited data

Results flagged for a closer look

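In hrde-1, H3K9me3 was below WT on OP50 and above WT on both RNAi bacteria at 28 of the 339 windows (8.26%), against 17.3% of the 15210 other H3K9me3-rich windows. The feedings went opposite ways at these windows, the difference was not tested, and each value is from 1 library. In set-32 the same pattern was at 0 members and at 16.1% of the other H3K9me3-rich windows. The ratios of both strains share the WT libraries, and both were limited by the rule.

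Loss of set-32 went with opposite differences of Pol II in the presence and the absence of MET-2 and SET-25 in 2 of the named regions, in both feedings. From V 17635 to V 17643, mean Pol II differed by -5.71 RPKM between set-32 and WT and by 1.04 RPKM between the triple mutant and met-2 set-25. From II 2019 to II 2022, it differed by -2.26 RPKM and by 4.41 RPKM. These differences between the 2 backgrounds were not tested, and the library codes of the strains differ.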

How the results depend on the processing

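The number of members depended on the limits and on the libraries. It was 118 with a set-32 limit of 0.5, 932 with 0.6, 206 with an hrde-1 limit of 0.7, 1388 with ratios scaled to the H3K9me3-poor windows (247 shared with the 339), 92 without OP50, 873 without gfp RNAi and 916 without oma-1 RNAi. It was 354 with a WT limit of 10 RPKM and 321 with 15 RPKM.

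Members lower in the triple mutant than in met-2 set-25 numbered 1 with depth normalization only, 0 with a pseudocount of 4, 2 with no replicate block, and 0 without OP50 (an alternative chosen after seeing the data), with 0 to 10 when single libraries were left out. The calls against WT for H3K9me3 ranged from 269 to 331 in met-2 set-25 and from 327 to 339 in the triple mutant, with none higher (0 to 0). For Pol II in set-32, the lower calls were 4 without the trend term and 4 to 8 without single libraries, and the higher calls were 0 with a pseudocount of 4, 2 with no replicate block, 0 without the trend term and 1 to 4 without single libraries. In met-2 set-25, the lower calls were 7 scaled to the median, 1 with a pseudocount of 4, 0 without the trend term, 6 with only the 2 strains and 0 to 2 without single libraries. The higher calls were 0 under each of these settings and with no replicate block, except 5 with only the 2 strains. In the triple mutant, the lower calls were 12 scaled to the median, 0 without the trend term, 2 with only the 2 strains and 0 to 3 without single libraries. The higher calls were 7 scaled to the median, 3 with a pseudocount of 4, 5 with no replicate block, 2 without the trend term, 27 with only the 2 strains and 0 to 13 without single libraries. In hrde-1, the lower calls were 2 with a pseudocount of 4, 1 without the trend term and 2 to 6 without single libraries, and the higher calls were 13 without the trend term and 16 to 20 without single libraries. The causes of these changes were not tested.

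For single windows that were called, 744 alternative values were computed, of which 513 kept the call, 231 lost it and 0 changed sign. The feedings share no animals. The correlation of deviations within a feeding was -0.227 to 0.388 for H3K9me3 and 0.0255 to 0.498 for Pol II, and no other pairing was used. Each strain and feeding had 1 library, so the errors hold no repeat of a preparation, and windows with few reads (a median of 13 to 35 per window for Pol II) limit the changes that can be called.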
